A study of Mus musculus with 10 samples.

Results

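The respiratory chain genes described here were the 97 protein-coding genes whose symbols name a subunit of complex I (Nduf), complex II (Sdh), complex III (Uqcr), complex IV (Cox4 to Cox8) or complex V (Atp5), or that lie on mitochondrial DNA (mt-). They were picked by symbol alone, with no measured value, from 35275 listed genes, of which 22026 were protein-coding. The nuclear genes numbered 84 and the mitochondrially encoded genes 13, and both sets were read apart. A symbol does not fix a role. Cox7a2l belongs to an assembly factor of supercomplexes, and Atp5s and Atp5sl do not encode subunits of the ATP synthase. By symbol, Cox7a2l was still counted with complex IV, Atp5s and Atp5sl with complex V, and all of them with the nuclear subunit genes. Ndufa4 and Ndufa4l2 were counted with complex IV, and the cytochrome c1 gene Cyc1 is not caught by the symbols used.

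RNA of jejunal epithelial cells was sequenced from 10 adult male C57BL/6 mice, all carrying floxed MYO5B alleles (MYO5Bflox/flox) and VillinCreERT2, a Cre recombinase that the villin promoter drives in the intestinal epithelium and that tamoxifen activates. The 3 control mice (numbers 2, 4 and 5) received corn oil in place of tamoxifen and kept MYO5B, a motor protein for apical membrane traffic. The 4 MYO5B-KO mice (numbers 3, 5, 6 and 7) received 2 mg of tamoxifen and a vehicle, 0.1% BSA in PBS. The other 3 MYO5B-KO mice (numbers 1, 4 and 5) received 2 mg of tamoxifen and lysophosphatidic acid (LPA, 3 mg/kg) into the peritoneum for 4 days. All 10 samples were taken on day 4, which is 4 days after tamoxifen in the MYO5B-KO mice. No control mouse received tamoxifen, so effects of tamoxifen and of MYO5B loss cannot be told apart, and the label of LPA-treated mouse 1 names vehicle as well as LPA. Levels are given as FPKM, fragments scaled by gene length and by the total on genes of the library, with no further scaling between libraries, and between 10949420 and 24470409 reads per library lay on genes.

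The libraries did not all have the same character. Mitochondrially encoded genes took 17.4% of the reads in control mouse 2 and 18.0% in MYO5B-KO mouse 3, against 1.98% to 3.50% in the other 8 libraries. These 2 libraries also held reads on fewer genes, 12242 and 12601 against 17309 to 18267. In LPA-treated mouse 5, the share was 3.50%, yet mt-Nd5 and mt-Nd6 took 72.4% of those reads, as they did in control mouse 2 (78.5%) and MYO5B-KO mouse 3 (75.0%) and unlike in the other 7 libraries (11.6% to 17.6%). Comparisons are therefore given with all 10 libraries and without these 3, a choice made after their mitochondrial reads were seen, which leaves 2 control mice against 3 MYO5B-KO and 2 LPA-treated mice. MYO5B-KO mouse 3 and LPA-treated mouse 1 had Xist reads and none on 4 Y-linked genes although all mice are labelled male. Myo5b itself was at 16.5, 32.0 and 26.1 FPKM in control mice and at 10.3 to 13.6 FPKM in all 7 tamoxifen-treated mice, below every control. Epithelial markers were present in every library, with Epcam between 628 and 1151 FPKM.

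Oxidative phosphorylation passes electrons from NADH and succinate through complexes I to IV to oxygen, and the proton gradient that complexes I, III and IV build drives ATP synthesis by complex V. Complex II is encoded in the nucleus alone, whereas the other 4 complexes join many nuclear subunits with a few core subunits made inside the mitochondrion. Absorptive enterocytes of the jejunum hold many mitochondria and spend much ATP on ion and nutrient transport.

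Nuclear subunit genes lay lower in MYO5B-KO than in control jejunum for 72 of 81 genes tested, but with all 10 libraries a single gene, Cox7a1, passed the test. In limma, with p-values adjusted by Benjamini-Hochberg over 15729 genes, 81 of the 84 nuclear genes could be tested, and 1 was called lower and 0 higher, while 0.884% of all genes tested were called lower and 1.13% higher. The log2 fold change was below 0 for 72 of the 81 genes and below the median of all genes for 77 of them. Its median over the nuclear genes was -0.51, and the median over all genes tested was 0.29. Other protein-coding genes of at least 10 FPKM had medians of 0.18 to 0.24 in 3 classes of coding length. When libraries were scaled to their median ratio, the median of all genes moved to 0.04 and that of the nuclear subunits to -0.80.

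Control and MYO5B-KO mice did not overlap for 15 of the 81 nuclear genes with all 10 libraries, each lower in MYO5B-KO, where 6.2% of all genes were lower and 11.0% higher without overlap. Without the 3 libraries named above, 64 of the 81 were lower without overlap and 0 higher, against 20.7% and 35.8% of all genes. In that smaller comparison, limma called 7 nuclear genes lower (5.5% of all genes tested) and 0 higher (6.94%): Cox7a1, Sdhb, Ndufa1, Ndufa3, Ndufa13, Ndufb11 and Atp5e. With all libraries, edgeR called 2 nuclear genes lower (2.27% of all genes) and 0 higher (1.55%), and DESeq2 called 9 lower (6.48%) and 0 higher (4.83%). Without the 3 libraries, edgeR called 9 lower (8.82%) and 0 higher (7.86%), and limma without control mouse 2 and MYO5B-KO mouse 3 alone called 3 lower (2.98%) and 0 higher (3.55%). Reads on nuclear subunits made up 2.98% to 3.83% of a library in control mice and 2.02% to 2.94% in MYO5B-KO mice. In RNA of whole cell preparations, fewer cells that express these genes and less of their RNA per cell cannot be told apart.

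**Figure D1:**
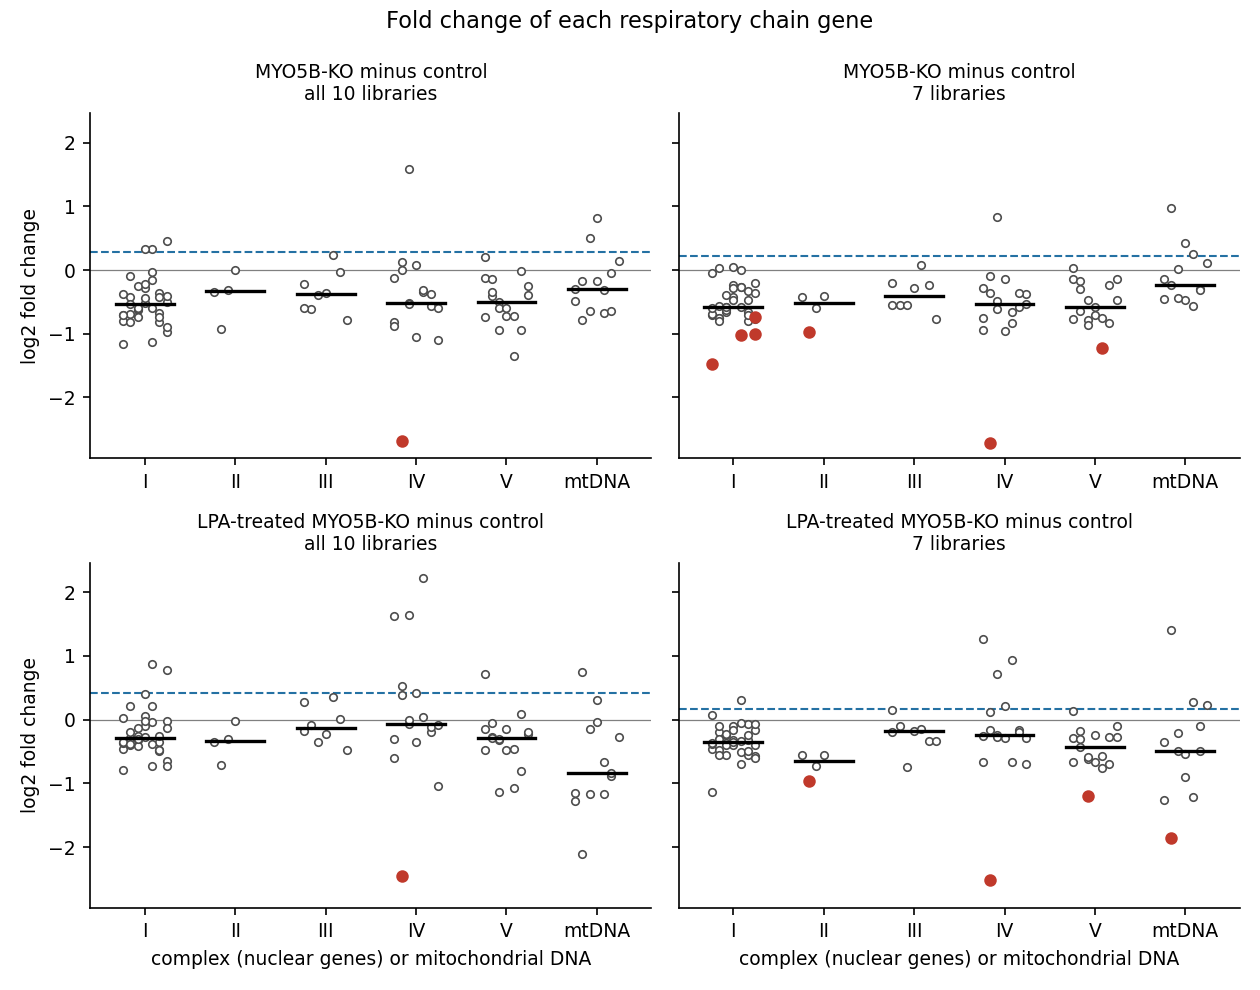
Log2 fold change of each respiratory chain gene against control, by complex for nuclear genes and together for mitochondrial DNA (mtDNA), for MYO5B-KO mice (top) and LPA-treated MYO5B-KO mice (bottom), with all 10 libraries (left) and with the 7 left without control mouse 2, MYO5B-KO mouse 3 and LPA-treated mouse 5 (right). Black bars are medians of the members, the dashed line is the median of all genes tested and filled red points passed limma's adjusted p under 0.05; in the upper panels all 5 nuclear medians lie between -0.33 and -0.59, below the dashed line.

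Complex I, the NADH dehydrogenase, had 35 testable genes, with a median log2 fold change of -0.54 in MYO5B-KO mice and 32 of 35 below 0. Ndufa1, a small membrane-arm subunit encoded on the X chromosome, was lowest. Its level was 293, 295 and 369.8 FPKM in control mice 2, 4 and 5, and 245, 98.6, 112 and 151 FPKM in MYO5B-KO mice 3, 5, 6 and 7. All controls lay above all MYO5B-KO mice, with a log2 fold change of -1.16 ± 0.39 (SE) that missed the threshold with all libraries (limma, adjusted p = 0.153) and passed it without the 3 libraries (-1.48 ± 0.29, adjusted p = 0.0179). Ndufb8, at the other end of complex I among genes of at least 10 FPKM, had 3.30, 38.5 and 38.6 FPKM in control mice and 8.10, 31.1, 29.7 and 40.1 FPKM in MYO5B-KO mice, so its groups overlapped, and control mouse 2 and MYO5B-KO mouse 3 stood far below the rest.

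The electron-entry arm of complex I held genes of both kinds. Ndufv1, which binds NADH and FMN, was measured at 177, 198 and 197 FPKM in control mice and at 107, 124, 123 and 153 FPKM in MYO5B-KO mice, without overlap. Ndufs1, the iron-sulphur protein beside it, reached 11.3, 57.6 and 49.9 FPKM in control mice and 15.1, 54.0, 59.7 and 52.8 FPKM in MYO5B-KO mice, overlapping, with the 2 libraries rich in mitochondrial reads far below the rest. Ndufs1 overlaps Eef1b2, a gene with more reads on the opposite strand, and no source says whether strand was used in counting, so its level is uncertain. Outside the 3 libraries, 29 of the 35 complex I genes were lower in MYO5B-KO without overlap (20.7% of all genes). Among them were Ndufa3 (205 and 239 against 94.2 to 143 FPKM), Ndufa13 (153 and 156 against 66.3 to 99.4 FPKM) and Ndufb11 (163 and 179.8 against 91.4 to 116 FPKM). Ndufa13 is also known as GRIM-19, and Ndufb11 overlaps Rbm10 on the opposite strand. The log2 fold changes in the 7 libraries were -1.01 ± 0.26, -1.02 ± 0.26 and -0.74 ± 0.19, with adjusted p of 0.0429, 0.0408 and 0.0421 in limma.

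Complex II, succinate dehydrogenase, links the citric acid cycle to the chain, and all 4 of its genes had log2 fold changes below 0 with all libraries (median -0.33). The median was -0.66 without control mouse 2 and -0.51 without the 3 libraries, and -0.14, -0.19 and -0.18 without control mouse 4, control mouse 5 or MYO5B-KO mouse 3, where 3 of the 4 genes were below 0. Sdhb, its iron-sulphur subunit, had 247, 423 and 452 FPKM in control mice, 117, 201, 206 and 267 FPKM in MYO5B-KO mice and 208, 243 and 211 FPKM in LPA-treated mice. Control mouse 2 and MYO5B-KO mouse 3 were the lowest of their groups, and control mouse 2 lay within the MYO5B-KO range. The fold change of Sdhb was -0.93 ± 0.33 with all libraries (adjusted p = 0.184, limma) and -0.97 ± 0.19 without the 3 (adjusted p = 0.0195). Sdha, the flavoprotein that oxidises succinate, followed with 134, 263 and 233 FPKM in control mice and 101, 162, 199.9 and 193 FPKM in MYO5B-KO mice. Sdhd, one of the membrane anchors, was nearest to 0 with 153, 443 and 448 FPKM in control mice and 247, 327, 328 and 352 FPKM in MYO5B-KO mice. For these 2 genes the groups overlapped through control mouse 2. Without the 3 libraries all 4 complex II genes were lower in MYO5B-KO mice without overlap (20.7% of all genes).

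Complex III, cytochrome bc1, had 7 of 8 genes below 0 and a median of -0.38. Uqcrc1, a core protein, had 652, 594 and 601 FPKM in control mice and 436, 432, 467 and 589.7 FPKM in MYO5B-KO mice, which did not overlap. Uqcrc2, the second core protein, had 29.9, 228 and 205 FPKM in control mice and 26.1, 229.8, 233 and 220.2 FPKM in MYO5B-KO mice, and overlapped with all libraries and in the 7. Uqcrfs1, the Rieske iron-sulphur protein, had 144, 417 and 387 FPKM in control mice and 151, 321, 323 and 381 FPKM in MYO5B-KO mice. Uqcrh, the hinge protein that contacts cytochrome c1, had the lowest fold change of the complex, with 2178, 601 and 693 FPKM in control mice and 1830.3, 358, 343 and 449 FPKM in MYO5B-KO mice. Its 2 libraries rich in mitochondrial reads were high where those of Uqcrc2 and Uqcrfs1 were low, and its fold change was -0.78 ± 0.69 (adjusted p = 0.595, limma).

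Complex IV, cytochrome c oxidase, held the single gene called with all libraries. Cox7a1 encodes the isoform of subunit VIIa that is best known from heart and skeletal muscle, and Cox7a2 encodes the isoform of most other tissues. Cox7a1 was at 584, 501 and 595 FPKM in control mice, at 96.8, 47.8, 85.9 and 142 FPKM in MYO5B-KO mice and at 55.9, 164 and 114 FPKM after LPA. The lowest control was above the highest of the 7 MYO5B-KO mice, and the libraries rich in mitochondrial reads lay within their groups. The log2 fold change was -2.69 ± 0.43 in MYO5B-KO mice (limma, adjusted p = 0.0156) and -2.46 ± 0.46 in LPA-treated mice (adjusted p = 0.0235), both against the same controls, and the MYO5B-KO mean was 0.166 of the control mean. The first call was lost without control mouse 4 (-2.76, adjusted p = 0.0559) or 5 (-2.64, adjusted p = 0.0849), and the second without any 1 control mouse or without LPA-treated mouse 1 or 5 (adjusted p = 0.0512 to 0.0963). The second was also lost in edgeR without the 3 libraries, and in limma without both MYO5B-KO mouse 3 and LPA-treated mouse 1.

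Cox7a2 differed by far less. It had 557, 509 and 575 FPKM in control mice, 453, 336, 312 and 427 FPKM in MYO5B-KO mice and 341, 585 and 813 FPKM in LPA-treated mice, so that control and MYO5B-KO mice did not overlap here either, whereas LPA-treated mice lay on both sides of the controls. Of the FPKM of both isoforms together, Cox7a1 made up 49.6% to 51.2% in control mice, 12.5% to 25.0% in MYO5B-KO mice and 12.3% to 21.9% in LPA-treated mice. The other genes whose isoforms mark muscle, hypoxic cells or testis were low: Cox7b2 and Cox8c had no read, Cox4i2 stayed at or below 0.223 FPKM, Cox8b at or below 0.639 FPKM, Ndufa4l2 at or below 1.14 FPKM and Cox6a2 at or below 2.64 FPKM. Cox6b2, a testis isoform, had 30.6, 10.5 and 20.4 FPKM in control mice and 4.06, 9.52, 9.37 and 16.1 FPKM in MYO5B-KO mice, which overlapped. Ndufa4l2 shares its locus with Shmt2 and Cox6a2 with Itgad, so that their few reads are uncertain.

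Muscle marker levels were low in all libraries, and summed immune markers were highest in control mice. All 8 muscle markers were measured, and their FPKM summed to 6.85 to 14.5 in control, 6.92 to 9.71 in MYO5B-KO and 7.86 to 14.5 in LPA-treated mice. Myh11 was at or below 0.193, Des at or below 2.30 and Tagln between 1.94 and 3.95 FPKM. Of 15 immune markers, 14 could be tested, and their FPKM summed to 327 to 452 in control, 26.7 to 138 in MYO5B-KO and 45.4 to 69.1 in LPA-treated mice. With all libraries, 10 of the 14 had log2 fold changes below 0 in MYO5B-KO against control mice and 4 above. Ptprc had 0.367, 2.77 and 3.39 FPKM in control mice and 0.158, 0.336, 1.26 and 1.57 FPKM in MYO5B-KO mice, which overlapped. In MYO5B-KO against control mice, 2 of the 14 were called lower and 0 higher with all libraries (0.884% and 1.13% of all genes), and 6 of 15 were called lower and 0 higher without the 3 (5.5% and 6.94%). Stromal and endothelial, neural and glial, and erythrocyte markers summed to at most 6.67, 19.6 and 78.3 FPKM in any library. The part of muscle or immune cells in the Cox7a1 result was not tested.

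**Figure D2:**
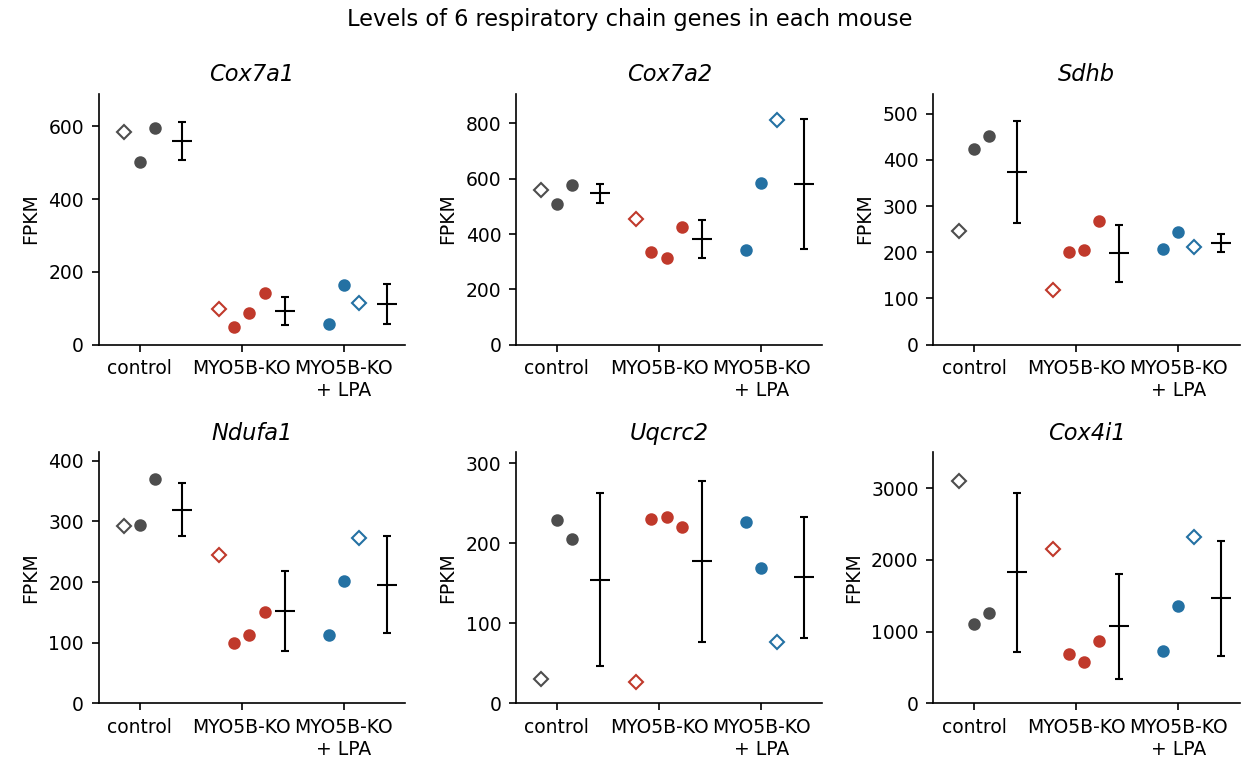
FPKM (vertical axes, from 0) of 6 subunit genes in each mouse of the 3 groups; each point is a mouse, open diamonds are control mouse 2, MYO5B-KO mouse 3 and LPA-treated mouse 5, and the black bar with whiskers is the group mean with its SD (n = 3, 4 and 3). Cox7a1 separates control mice (501 to 595 FPKM) from all others (47.8 to 164 FPKM), whereas the open diamonds lie lowest for Uqcrc2 and highest for Cox4i1 in each group.

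Promoters are shown for Cox7a1, which limma called with all libraries, for its paralog Cox7a2, which it did not call, and for Sdhb, which it called without the 3 libraries. The promoters run from 250 bases before to 50 after the RefSeq start, in GRCm38.p6, 5′ to 3′ on the strand of the gene. Capitals mark 2 motifs searched on both strands, GCATGCGC, the core bound by NRF1, and CCGGAAG, a site of ETS factors. Cox7a1 lies at chr7:30183921-30184220 on the plus strand, Cox7a2 at chr9:79759804-79760103 on the minus strand and Sdhb at chr4:140961021-140961320 on the plus strand.
Cox7a1: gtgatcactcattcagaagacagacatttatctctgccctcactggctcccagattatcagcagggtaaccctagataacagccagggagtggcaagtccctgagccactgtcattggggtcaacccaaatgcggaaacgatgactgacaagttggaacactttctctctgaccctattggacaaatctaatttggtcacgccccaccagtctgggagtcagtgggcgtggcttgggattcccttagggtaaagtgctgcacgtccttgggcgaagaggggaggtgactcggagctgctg
Cox7a2: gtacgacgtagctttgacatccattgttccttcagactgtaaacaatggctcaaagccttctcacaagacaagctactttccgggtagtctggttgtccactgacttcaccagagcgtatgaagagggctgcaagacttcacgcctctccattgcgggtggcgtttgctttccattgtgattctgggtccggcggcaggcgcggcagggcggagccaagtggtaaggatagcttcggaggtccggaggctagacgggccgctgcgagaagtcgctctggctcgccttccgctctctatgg
Sdhb: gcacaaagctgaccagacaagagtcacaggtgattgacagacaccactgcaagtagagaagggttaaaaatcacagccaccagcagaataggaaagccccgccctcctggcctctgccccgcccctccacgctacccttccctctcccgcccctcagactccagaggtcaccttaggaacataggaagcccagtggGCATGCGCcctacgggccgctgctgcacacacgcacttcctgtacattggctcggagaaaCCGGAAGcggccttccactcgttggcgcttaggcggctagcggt
Neither motif was found in the windows of Cox7a1 and Cox7a2, and Sdhb held each of them once. Cox7a1 had 7 CG dinucleotides and Cox7a2 20. A promoter was matched for 69 of the 84 nuclear genes by current or older symbol. GCATGCGC was in 10 of these (14.5%) and in 2.8% of all 27025 promoters, CCGGAAG in 15 (21.7%) and 9.12%, the cAMP response element TGACGTCA in 4 (5.8%) and 1.88%, and TATAAA in 7 (10.1%) and 14.2%. The median number of CG dinucleotides was 19 in the 69 member promoters and 7 in all promoters, and each string but TATAAA contains CG. The part of CG content in these shares was not tested. None of the 4 strings contains another, and a match is a description of letters only.

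Over the 17 testable complex IV genes the median log2 fold change in MYO5B-KO mice was -0.52, with 13 of them below 0. Cox4i1, the ubiquitous isoform of subunit IV, had 3108, 1107 and 1265 FPKM in control mice and 2153, 684, 581 and 863 FPKM in MYO5B-KO mice. Cox5a, a matrix-side subunit, had 71.1, 249 and 238 FPKM in control mice and 99.9, 181, 170.4 and 226 FPKM in MYO5B-KO mice. Both overlapped with all libraries and separated without the 3. In that setting 11 of the 17 complex IV genes were lower without overlap (20.7% of all genes). Cox6a1, the general isoform of subunit VIa, was lower in every MYO5B-KO mouse with all libraries, at 2648, 1696 and 1924 against 1208, 813, 815 and 1226 FPKM. Ndufa4 had 299, 498 and 647 FPKM in control mice and 409.9, 518, 489 and 601 FPKM in MYO5B-KO mice, which overlapped, and it had the highest fold change of complex IV genes of at least 10 FPKM.

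Complex V, the ATP synthase, had 16 of 17 genes below 0 and a median of -0.51. Atp5a1 and Atp5b encode the alpha and beta subunits of the catalytic head. Atp5b had 452, 1475 and 1389.7 FPKM in control mice and 298, 1193, 1267 and 1376 FPKM in MYO5B-KO mice. Atp5a1 had 372, 791 and 748 FPKM in control mice and 277, 667, 696 and 731 FPKM in MYO5B-KO mice. Both were lowest in the 2 libraries rich in mitochondrial reads, and in the other libraries the control mice were above the MYO5B-KO mice by a narrow margin. Atp5e, the small epsilon subunit of the stalk, went the other way in those 2 libraries, with 1783, 274 and 314 FPKM in control mice and 985, 117, 102 and 166 FPKM in MYO5B-KO mice. Its fold change was -1.35 ± 0.89 with all libraries (adjusted p = 0.471, limma) and -1.22 ± 0.29 without the 3 (adjusted p = 0.0314). Atp5g2, a gene for the c ring, had 29.5, 149 and 138 FPKM in control mice and 29.6, 177, 120.1 and 146 FPKM in MYO5B-KO mice and overlapped with all libraries and in the 7. Peripheral-stalk genes Atp5o and Atp5h and the membrane subunit gene Atp5j2 were lower in each MYO5B-KO mouse with all libraries, for Atp5o at 696, 609 and 687 against 457, 359, 332 and 451 FPKM.

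Within the nuclear genes, what set control mouse 2 and MYO5B-KO mouse 3 apart went in both directions. Of the 75 nuclear genes whose mean reached 10 FPKM, both libraries lay below the other 7 for 22 (29.3%) and above them for 25 (33.3%). Among 4600 other protein-coding genes of that level, the shares were 42.5% below and 10.8% above. LPA-treated mouse 5 was also above the 7 for 24 of the 25 genes and below them for 12 of the 22. Among the other protein-coding genes it was above the 7 for 427 of 495 and below them for 1221 of 1954. The subunit genes above included Atp5e, Uqcrh, Cox6b1 and Ndufs6, and the subunit genes below included Atp5b, Uqcrc2, Ndufs1 and Sdha.

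The coding length of the genes went along with this division. The deviation of each gene from its own median over 10 libraries was compared between 43 subunit genes with under 450 coding bases and 11 with 900 or more. The short genes exceeded the long by 1.16 on the log2 scale in control mouse 2, by 0.86 in MYO5B-KO mouse 3 and by 0.72 in LPA-treated mouse 5. LPA-treated mouse 4 had 0.37, control mice 4 and 5 had -0.14 and 0.07, and MYO5B-KO mice 5, 6 and 7 and LPA-treated mouse 1 lay between -0.66 and -0.31. For other protein-coding genes the differences had the same sign in each library and were smaller, between 0.04 and 0.76 in size. Across the 75 subunit genes, Spearman's rho between coding length and deviation was -0.52 and -0.45 in LPA-treated mice 5 and 4, -0.38 and -0.37 in control mouse 2 and MYO5B-KO mouse 3, -0.10 in control mouse 5 and 0.35 to 0.59 in the other 5 libraries, a description over genes of 1 library each. In the 7 libraries the median fold change in MYO5B-KO mice was -0.61 for the 43 short genes, -0.48 for 21 of intermediate length and -0.27 for the 11 long ones, whereas other genes had 0.05, 0.11 and 0.19. The part of RNA fragment length or quality in these differences was not tested.

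**Figure D3:**
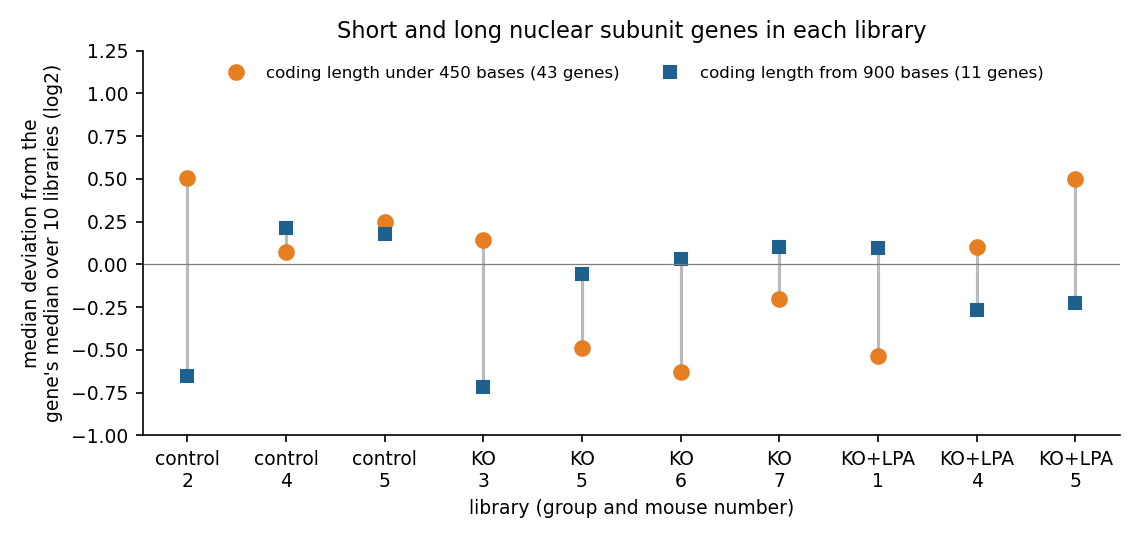
Median deviation (log2) of short (orange circles, 43 genes) and long (blue squares, 11 genes) nuclear subunit genes from each gene's own median over the 10 libraries, for each library on the horizontal axis. Short genes lie 0.72 to 1.16 above long genes in control mouse 2, MYO5B-KO (KO) mouse 3 and LPA-treated (KO+LPA) mouse 5, and 0.31 to 0.66 below them in the other 3 MYO5B-KO mice and LPA-treated mouse 1.

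The 13 genes of mitochondrial DNA encode 7 subunits of complex I, cytochrome b of complex III, 3 subunits of complex IV and 2 of complex V. None passed the test in MYO5B-KO against control mice with all libraries or without the 3 (limma, 0 higher and 0 lower; 0 at an unadjusted p under 0.05 in either). Their median log2 fold change was -0.29 with all libraries and -0.24 without the 3, where the median of all genes was 0.29 and 0.22. Its direction was not held, since it was 0.17, with 9 of 13 genes above 0, without control mouse 2. It was -0.62 and -0.53 without control mouse 4 or 5, and -0.57, -0.16, -0.058 and -0.0070 without MYO5B-KO mouse 3, 5, 6 or 7. A stretch of chromosome 1 (GRCm38, 24611535 to 24616197) holds nuclear copies of 7 of them, identical to mt-Co2, mt-Atp6, mt-Co3 and mt-Nd4l over 294 to 783 bases and 99.7% identical to mt-Nd3, so the levels of these genes, of mt-Atp8 beside them and in part of mt-Co1 and mt-Nd4 are uncertain. For mt-Nd1, mt-Nd2, mt-Nd5, mt-Nd6 and mt-Cytb no copy was found among the listed genes of this stretch, and copies elsewhere were not searched for.

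Among those 5 genes, the libraries named above stood out within their groups. mt-Nd1, a membrane subunit of complex I, had 6919.8, 4009 and 4089 FPKM in control mice and 9770.5, 5409.9, 4545 and 3415 FPKM in MYO5B-KO mice. mt-Cytb had 4529, 3365 and 3625 FPKM in control mice, 7977, 2948, 2998 and 2634 FPKM in MYO5B-KO mice and 2946, 2081 and 1419 FPKM in LPA-treated mice. mt-Nd2 was at 11241 FPKM in control mouse 2 and 13685 FPKM in MYO5B-KO mouse 3, and between 1022 and 1397 FPKM in the other 8 libraries.

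The complex I genes mt-Nd5 and its neighbour mt-Nd6 on the other strand set the 3 libraries apart. mt-Nd5 was at 45431, 43368 and 7829 FPKM in control mouse 2, MYO5B-KO mouse 3 and LPA-treated mouse 5, and between 786 and 1208 FPKM elsewhere. mt-Nd6 was at 103792, 108575 and 21307 FPKM in these 3 and between 2077 and 3786 FPKM elsewhere. The genes overlap at their ends, on opposite strands of positions 11742 to 13565 and 13552 to 14070. mt-Co1, the catalytic subunit of complex IV, was low in the same libraries, at 1112, 2419 and 1094 FPKM against 4150 to 7206 FPKM. Apart from mt-Nd5 and mt-Nd6, mitochondrial genes took 3.74% and 4.50% of reads in control mouse 2 and MYO5B-KO mouse 3, 0.964% in LPA-treated mouse 5 and 1.64% to 2.24% in the other 7.

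**Figure D4:**
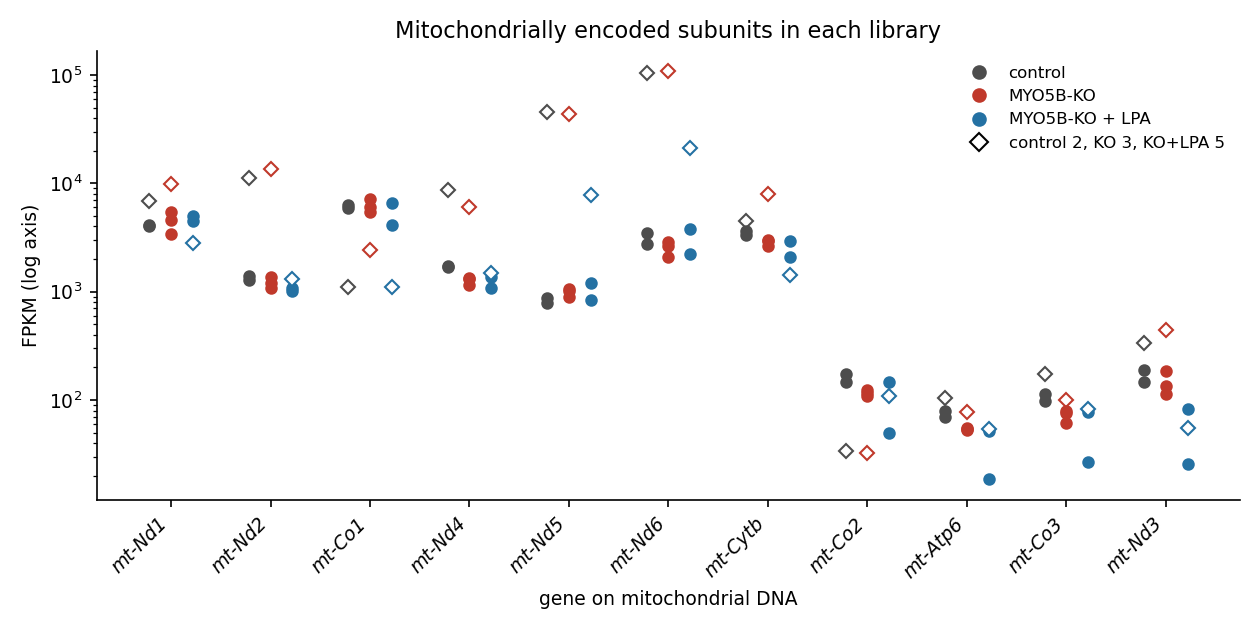
FPKM on a log axis of 11 mitochondrially encoded genes in each library, coloured by group; open diamonds are control mouse 2, MYO5B-KO mouse 3 and LPA-treated mouse 5, and mt-Atp8 and mt-Nd4l, at or below 4.45 FPKM, are left out. The diamonds lie at 7829 to 45431 FPKM for mt-Nd5 and at 21307 to 108575 FPKM for mt-Nd6, above all filled points, and at or below 2419 FPKM for mt-Co1, below them.

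LPA treatment of MYO5B-KO mice was compared with vehicle treatment, and no respiratory chain gene passed the test. In limma, 0 of 81 nuclear and 0 of 13 mitochondrial genes were called, as were 0.0% of all 15729 genes tested, of which 459 had an unadjusted p under 0.05. At an unadjusted p under 0.05 there were 3 nuclear genes, all higher (Ndufa6, Cox6a2 and Cox8b), and 1 mitochondrial gene, mt-Nd3, lower. edgeR called 0 genes, and DESeq2 called 5 genes of the whole table (0.0224%, all higher) and 0 respiratory chain genes. The median log2 fold change was 0.28 for the nuclear genes, against 0.11 for all genes, and 0.19 against -0.07 without the 3 libraries, where 5 nuclear genes were higher with LPA without overlap (10.2% of all genes) and 2 lower (7.43%). The groups did not overlap for 3 nuclear genes higher with LPA (3.56% of all genes) and 1 lower (0.604%). Cox7a1 had a difference of 0.23 ± 0.43 (adjusted p = 1, limma) whose sign turned without MYO5B-KO mouse 5 (-0.06) or LPA-treated mouse 4 (-0.12).

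The LPA-treated mice differed among themselves. Nuclear subunits took 2.20%, 2.67% and 3.27% of the reads in LPA-treated mice 1, 4 and 5, against 2.02% to 2.94% in MYO5B-KO mice. Ndufa6, an accessory subunit of complex I, had 284, 345 and 363 FPKM with LPA and 171, 224, 214 and 241 FPKM without, and did not overlap. Cox4i1 had 727, 1355 and 2320.1 FPKM with LPA, and Ndufa1 113, 202 and 273 FPKM, in both cases with mice 1 and 4 within the MYO5B-KO range and mouse 5 above it. The median of the nuclear genes was 0.083 without LPA-treated mouse 5, 0.18 without MYO5B-KO mouse 6 and 0.52 without LPA-treated mouse 1. Mouse 1 is also among the 2 libraries that went against the label male, and its label names vehicle. The part of these features in the difference was not tested.

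Against control mice, LPA-treated MYO5B-KO mice had 62 of 81 nuclear subunit genes below 0. Without LPA-treated mouse 1 the median was -0.040, with 46 of 81 below 0, and it was -0.40 without LPA-treated mouse 5. With mice 4 and 5 of both groups alone and the replicate number as a block, 41 genes were above 0 and 40 below (median 0.021). Cox7a1 was the 1 nuclear gene called lower, where 0.776% of all genes were, and 0 were called higher (1.54%). The median over nuclear genes was -0.26, with that of all genes at 0.41, and 73 of 81 lay below the latter. Groups did not overlap for 9 nuclear genes lower in LPA-treated mice (6.38% of all genes) and 2 higher (20.5%), the latter being Cox7a2l and Cox6a2. Without the 3 libraries 47 of 81 were lower without overlap (22.5%) and 3 higher (34.3%), and Sdhb, Cox7a1 and Atp5sl were called lower (4.37%) and 0 higher (4.68%). Sdhb had a fold change of -0.96 ± 0.21 there (adjusted p = 0.0297, limma), and Atp5sl, which encodes an assembly factor of complex I, one of -1.20 ± 0.27 (adjusted p = 0.0323). With all libraries edgeR called 2 nuclear genes lower (1.64%) and 0 higher (1.46%), and DESeq2 called 4 lower (5.44%) and 0 higher (4.33%). Without the 3 libraries edgeR called 2 lower (6.06%), Sdhb and Atp5sl but not Cox7a1, and 0 higher (5.7%). Limma without the 2 rich in mitochondrial reads called 3 lower (4.94%) and 0 higher (5.04%). Both comparisons with control mice use the same 3 animals, so their resemblance is partly given.

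Among mitochondrial genes, 5 of 13 were lower in LPA-treated than in control mice without overlap (6.38% of all genes): mt-Nd3, mt-Nd4, mt-Cytb, mt-Atp6 and mt-Co3. All but mt-Cytb have copies on chromosome 1 that could take their reads, so this count is uncertain. The identical copy of mt-Co3 had 307, 88.2 and 102 FPKM in control mice and 26.9, 111 and 137 FPKM in LPA-treated mice, which overlapped. In limma 0 of the 13 genes were called with all libraries (0.776% of all genes were called lower) and mt-Nd3 alone without the 3 (4.37%), whose choice had used mitochondrial genes. mt-Nd3 had 337, 148 and 190.4 FPKM in control mice, 439, 186, 115 and 136 FPKM in MYO5B-KO mice and 82.7, 25.9 and 55.4 FPKM in LPA-treated mice. Its fold change against control was -2.10 ± 0.57 with all libraries (adjusted p = 0.0896, limma) and -1.86 ± 0.48 without the 3 (adjusted p = 0.0481). The near-identical chromosome 1 copy of mt-Nd3 had 8.17, 308 and 1106 FPKM in LPA-treated mice 1, 4 and 5 and 10241, 34.8 and 42.9 FPKM in control mice, so reads could move between the pair, and the result is uncertain.

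The medians of 8 other mitochondrial gene groups in MYO5B-KO mice lay above that of the nuclear subunits, a difference that was not tested. The median of all genes was 0.29 with all libraries and 0.22 in the 7. Assembly factors, cytochrome c and coenzyme Q synthesis and the citric acid cycle lay below it in both. The group of outer membrane, carriers and cristae lay below it in the 7 alone. With all libraries the median log2 fold change was 0.42 for 76 mitochondrial ribosomal protein genes, 0.68 for 21 genes of the import machinery, 0.72 for 25 genes of mitochondrial DNA maintenance and RNA, and 0.11 for 43 assembly factors of complexes I to V. It was -0.05 for 13 genes of the citric acid cycle, 0.06 for 14 genes of cytochrome c and coenzyme Q synthesis, 0.40 for 13 genes of the outer membrane, carriers and cristae, and 0.59 for 12 regulators. In the 7 libraries it was -0.25 for the citric acid cycle and 0.16 for the outer membrane, carriers and cristae, and the other 6 groups lay between 0.05 and 0.59. Of these 8 groups, 1 gene passed the test with all libraries, Slc25a4, where 1.13% of all genes were called higher. It encodes the ADP/ATP carrier isoform of muscle and heart, and rose from 2.87, 4.66 and 5.40 FPKM in control mice to 10.6, 46.1, 26.2 and 19.2 FPKM in MYO5B-KO mice (2.39 ± 0.46, adjusted p = 0.0323, limma), without overlap, a call lost when any 1 library but MYO5B-KO mouse 3 was left out (adjusted p up to 0.104). Without the 3 libraries, called higher and lower were 9 and 0 of the mitochondrial ribosomal genes, 6 and 0 of 22 import genes, 5 and 0 of the maintenance genes, 1 and 0 of the assembly factors, 0 and 0 of the citric acid cycle, 1 and 0 of the cytochrome c and coenzyme Q genes, 2 and 0 of the carrier group and 2 and 2 of the regulators, where 6.94% of all genes were called higher and 5.5% lower.

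The regulators did not all lie on the same side. Ppargc1a, the coactivator PGC-1alpha that drives mitochondrial biogenesis, had 2.98, 5.17 and 5.82 FPKM in control mice and 0.424, 1.34, 2.02 and 1.32 FPKM in MYO5B-KO mice. It did not overlap and was called in the 7 libraries (-1.78 ± 0.32, adjusted p = 0.0135, limma) but not in all 10 (-1.90 ± 0.52, adjusted p = 0.0912). Pprc1, its relative that responds to growth signals, had 2.36, 3.47 and 2.66 FPKM in control mice and 7.38, 9.19, 9.02 and 5.97 FPKM in MYO5B-KO mice, with fold changes of 1.35 ± 0.30 (adjusted p = 0.0264, limma) in the 7 libraries and 1.44 ± 0.34 (adjusted p = 0.0599) in all 10. Ppargc1b, PGC-1beta, had 5.55, 4.71 and 4.44 FPKM in control and 5.80, 9.04, 7.91 and 6.37 FPKM in MYO5B-KO mice, without overlap, and was called in neither set of libraries. Esrra, the nuclear receptor that PGC-1alpha coactivates, had 29.2, 211 and 227 FPKM in control mice and 19.1, 109, 115 and 133 FPKM in MYO5B-KO mice, and was called lower in the 7 libraries (adjusted p = 0.0176, limma), in which Pprc1 and Yy1 were called higher. Tfam, which packages mitochondrial DNA, had 2.72, 10.1 and 9.47 FPKM against 5.50, 14.6, 10.8 and 9.34 FPKM, and its groups overlapped. The same was true of Cs, citrate synthase, at 187, 376 and 329 against 201, 339, 435 and 416 FPKM, and of Cycs, cytochrome c, at 80.9, 201 and 195 against 67.5, 132, 166 and 217 FPKM.

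Markers of proliferating cells and of enterocytes were read in the same libraries. All 12 proliferation markers were tested, and their FPKM summed to 77.0 to 146 in control, 246 to 429 in MYO5B-KO and 178 to 350 in LPA-treated mice. The 12 enterocyte markers summed to 31828 to 41918 FPKM in control, 14565 to 26690 in MYO5B-KO and 22656 to 43606 in LPA-treated mice. Against control with all libraries, their median log2 fold change was -1.04 in MYO5B-KO mice (10 of 12 below 0) and -1.14 in LPA-treated mice (9 of 12). In LPA-treated against control mice, limma called 2 enterocyte markers lower and 0 higher, where 0.776% of all genes were called lower and 1.54% higher. In MYO5B-KO against control mice with all libraries, limma called 1 proliferation marker higher and 0 lower, and 1 enterocyte marker lower and 0 higher, where 1.13% of all genes were called higher and 0.884% lower. In the 7 libraries it called 2 proliferation markers higher and 0 lower, and 6 enterocyte markers lower and 1 higher, where 6.94% of all genes were called higher and 5.5% lower. Their part in the lower levels of the nuclear subunit genes was not tested.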

How the data were processed

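RNA from jejunal epithelial cells of 10 mice was sequenced, and groups were taken from the sample labels. The FPKM table was made and deposited by the authors, whose processing notes name STAR 2.5, TopHat, HTSeq 0.6.1, DESeq2 and the build GRCm38, without their roles. FPKM scales reads by gene length and library total. A further deposited table held counts of 9 genes together with the authors' own fold changes and p-values, and those comparisons and the authors' pathway enrichments were not used. The FPKM steps gave whole reads for 100% of values (tolerance 0.01), and 63 of 63 deposited counts were equal to the recovered reads.

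The main test was limma 3.58.1 (R 4.3.3) with a trended prior on log2(FPKM + 0.1), over genes of mean FPKM of at least 0.1, in a single model of 3 groups, with Benjamini-Hochberg adjustment over all genes. Fold changes are on that scale and understate those of low genes. edgeR 4.0.16 (quasi-likelihood) and DESeq2 1.42.0 on the recovered reads, other pseudocounts, filters and scalings, and leaving out libraries were alternatives. The fits were also run on simulated reads with the same spread setting for all genes and libraries. That simulation held no library like the 3 set apart above, so it cannot show how the fits behave with them. Nothing states separate litters or batches, so p-values measure the spread between these mice.

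Members and lists were chosen with earlier results of these data known. Genes named were all mitochondrial members, nuclear members called with all libraries, the extremes of each complex among genes of mean FPKM of at least 10, core subunits and tissue isoforms, and called or central genes of the other lists; members called without the 3 libraries, and Cox7a2, Cox6a1, Atp5o, Atp5h, Atp5j2 and Ndufa6, were named after their values were seen. Replicate numbers recur across groups, and the main test did not treat them as pairs. Differences between control mice 4 and 5 and between LPA-treated mice 4 and 5 correlated at r = 0.03 over genes. That check includes LPA-treated mouse 5, among the 3 libraries set apart above, and cannot decide whether equal numbers mark related mice.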

Additional observations from a re-analysis of the deposited data

Results flagged for a closer look

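Among the 4 MYO5B-KO mice, 41 values were screened with Dixon's criterion for groups of 4, and 19 had 1 mouse far from the other 3. Chance flags about 1 in 20 single values. Values of 1 library are not independent, so the number of flags cannot be set against that rate. MYO5B-KO mouse 3, already set apart above by its mitochondrial reads, accounted for 16 of the 19. It had reads on 12601 genes, 18.0% mitochondrial reads and 75.0% of those on mt-Nd5 and mt-Nd6. Its nuclear subunit genes stood low for Uqcrc2 (26.1 FPKM), Ndufs1 (15.1 FPKM), Atp5a1 (277 FPKM) and Atp5b (298 FPKM) and high for Uqcrh (1830.0 FPKM) and Atp5e (985 FPKM). Among mitochondrial genes it was high for mt-Nd2 (13685 FPKM), mt-Nd4 (6038 FPKM), mt-Nd5 (43368 FPKM), mt-Nd6 (108575 FPKM), mt-Cytb (7977 FPKM) and mt-Atp6 (77.8 FPKM) and low for mt-Co2 (32.7 FPKM). MYO5B-KO mouse 7 was apart for Cox8b (0.367 FPKM) and mt-Atp8 (0.652 FPKM), and MYO5B-KO mouse 6 for mt-Nd4l (4.45 FPKM). Cox8b and mt-Atp8 each rested on 3 reads, with 0 in the other 3 MYO5B-KO mice, a pattern that the criterion always flags.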

How the results depend on the processing

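In MYO5B-KO against control mice, 1 nuclear subunit gene was called with all libraries (0 to 1 when any 1 mouse was left out), 2 with edgeR, 9 with DESeq2, 3 with median-ratio scaling (2.42% of all genes called lower), 11 with a covariate for the 2 libraries rich in mitochondrial reads (6.17%), 3 without those 2, 2 without the 2 against the label male (0.786%) and 7 without the 3 rich in mt-Nd5 and mt-Nd6 (there 9 with edgeR and 8 with median-ratio scaling, 8.15%), each of them lower. Settings without the 3 were chosen after seeing the data. The nuclear median of -0.51 was -0.72 with edgeR, -0.71 with DESeq2, -0.80 with median-ratio scaling, and -0.75 and -0.78 with edgeR and median-ratio scaling without the 3, and -0.59 to -0.44 with 1 mouse left out; the mitochondrial median ranged from -0.62 to 0.17. Between LPA-treated and vehicle-treated MYO5B-KO mice, the nuclear median of 0.28 was 0.047 with edgeR, 0.041 with DESeq2, 0.58 without the 2 against the label male and 0.083 to 0.52 with 1 mouse left out. The mitochondrial median of -0.50 was -0.97 with edgeR and -0.78 to -0.32 with 1 mouse left out, and Cox7a1 turned from 0.23 to -0.06 without MYO5B-KO mouse 5 and to -0.12 without LPA-treated mouse 4 and ranged up to 0.66. In LPA-treated against control mice, 1 nuclear gene was called (0 to 1 with 1 mouse left out), 2 with edgeR with and without the 3, 2 with median-ratio scaling with and without the 3 (1.73% and 5.46% of all genes), 4 with DESeq2, 5 with the covariate (5.38%), 3 without the 2 rich in mitochondrial reads, 3 without the 3 and 0 without the 2 against the label male. The nuclear median of -0.26 was -0.62 with edgeR, -0.65 with DESeq2, -0.63 with median-ratio scaling (-0.49 without the 3), -0.040 without the 2 against the label male and -0.40 to -0.040 with 1 mouse left out. The mitochondrial genes called were 0, or 1 with DESeq2, the covariate, without the 2 against the label male, without the 2 rich in mitochondrial reads and without the 3 in each tool, and 0 to 1 with 1 mouse left out; their median of -0.83 was -1.44 with edgeR and -1.29 to -0.39 with 1 mouse left out. With the replicate block, possible for mice 4 and 5 of these 2 groups alone, 2 nuclear and 1 mitochondrial genes were called lower (6.36% of all genes), with a nuclear median of 0.021. No paired analysis was possible because the MYO5B-KO group shares a single number with either other group. The cause of these differences was not tested. With 2 to 4 mice a group, differences smaller than the spread between libraries could not be detected.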
